A study of Mus musculus with 6 samples.

Results

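Neuropeptides are cut from larger precursor proteins, stored in dense-core vesicles and released to act on G protein-coupled receptors, through which they tune the excitability and the cyclic AMP or calcium levels of nearby neurons. In the retina, single peptides mark particular retinal ganglion cell (RGC) and amacrine cell types: PACAP, from Adcyap1, is a co-transmitter of the melanopsin RGCs that set the body clock, and CART peptide, from Cartpt, marks direction-selective RGCs. A reporter mouse carrying the Trhr regulatory region labels direction-selective RGCs as well. The set described here held 10 of the 24060 genes of the count table. These were 6 peptide precursors (Adcyap1, Tac1, Cartpt, Penk, Gal and Nmb) and 4 peptide receptors (Trhr, Adcyap1r1, Sstr2 and Sstr4).

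The genes were chosen by name, with the E18 against P5 difference of these same samples in view, so their own differences between the ages are given as a description with no test. The study compared gene expression in RGCs before and after birth, at E18 and P5, to look for genes tied to the loss of axon growth with age. Each group comprised 3 samples from C57BL/6 mice without other treatment, numbered 1, 3 and 4 at E18 and 6, 8 and 9 at P5. At both ages retinas were dissociated with papain, macrophages were removed with antibodies, and RGCs were held on dishes coated with antibody against CD90 (Thy1). The selection was by a surface protein whose own transcript was higher at P5, with Thy1 at 212, 217 and 312 CPM at E18 and at 500, 469 and 690 CPM at P5, where CPM is the read count of a gene divided by the library size and scaled to a fixed total. Nothing states that the samples of an age came from separate litters or preparations, so the p-values below measure the spread between these samples, which may be technical. E18 replicate 1 has a column headed with the numbers 1, 2 and 5. The molecule label says polyA RNA, and the library protocol names a ribosomal RNA removal kit.

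Between 81213639 and 114512853 reads were counted on genes per sample, and all CPM values below use library sizes normalized by TMM. The markers of the labelled cell type were present at both ages. Rbpms, an RNA-binding protein of RGCs, was at 276 to 320 CPM at E18 and 291 to 329 CPM at P5. The summed level of 12 RGC markers was 5105 to 6121 CPM at E18 and 6146 to 7634 CPM at P5. Of these markers, 5 were called higher at P5 and 3 lower (Isl1, Isl2 and Sncg). Nefl weighed most in the sum, with a mean of 1815 CPM at E18 and 2914 CPM at P5. Isl1 went from a mean of 557 CPM to 260 CPM. The E18 samples were not alike in other cells. The summed level of 12 dividing-cell genes was 276, 77.1 and 25.0 CPM in E18 replicates 1, 3 and 4, against 20.1 to 33.4 CPM at P5. Retinal progenitor genes followed the same order, with sums over 12 genes of 163, 123 and 31.1 CPM at E18 and 20.5 to 28.7 CPM at P5. Tfap2b, a transcription factor of amacrine cells, was at 47.5, 119 and 1.62 CPM at E18 and at 1.02 to 1.55 CPM at P5. The sum of all 12 amacrine markers went the other way, at 361 to 564 CPM at E18 and 627 to 765 CPM at P5, while 2 of the 12 were called higher and 6 lower at P5. E18 replicate 4 was the E18 sample nearest to the P5 samples in Tfap2b and in the dividing-cell and progenitor sums. In the amacrine sum, replicate 4 was the farthest from them, at 361 CPM, and replicate 3 the nearest, at 564 CPM. At P5, replicate 8 was the lowest of its age in 65.5% of the 3709 genes called higher at P5.

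Of the 10 genes, 7 were higher in every P5 sample than in every E18 sample (Trhr, Adcyap1, Tac1, Cartpt, Penk, Sstr2 and Sstr4), 2 were lower in every P5 sample (Gal and Nmb), and 1 overlapped between the ages (Adcyap1r1). Over all 16449 genes tested, 28.5% were higher in every P5 sample and 27.6% were lower in every P5 sample. Among the same genes, 22.5% were called higher at P5 and 20.8% lower at P5 by edgeR's quasi-likelihood test at an adjusted p under 0.05. Nothing is read from the members' counts against these shares, because the members were selected on that contrast. All 10 genes passed edgeR's expression filter, and Trhr passed it through its P5 samples alone. In a bulk sample, fewer cells of a type and less RNA per cell cannot be told apart, which holds for each difference below.

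**Figure D1:**
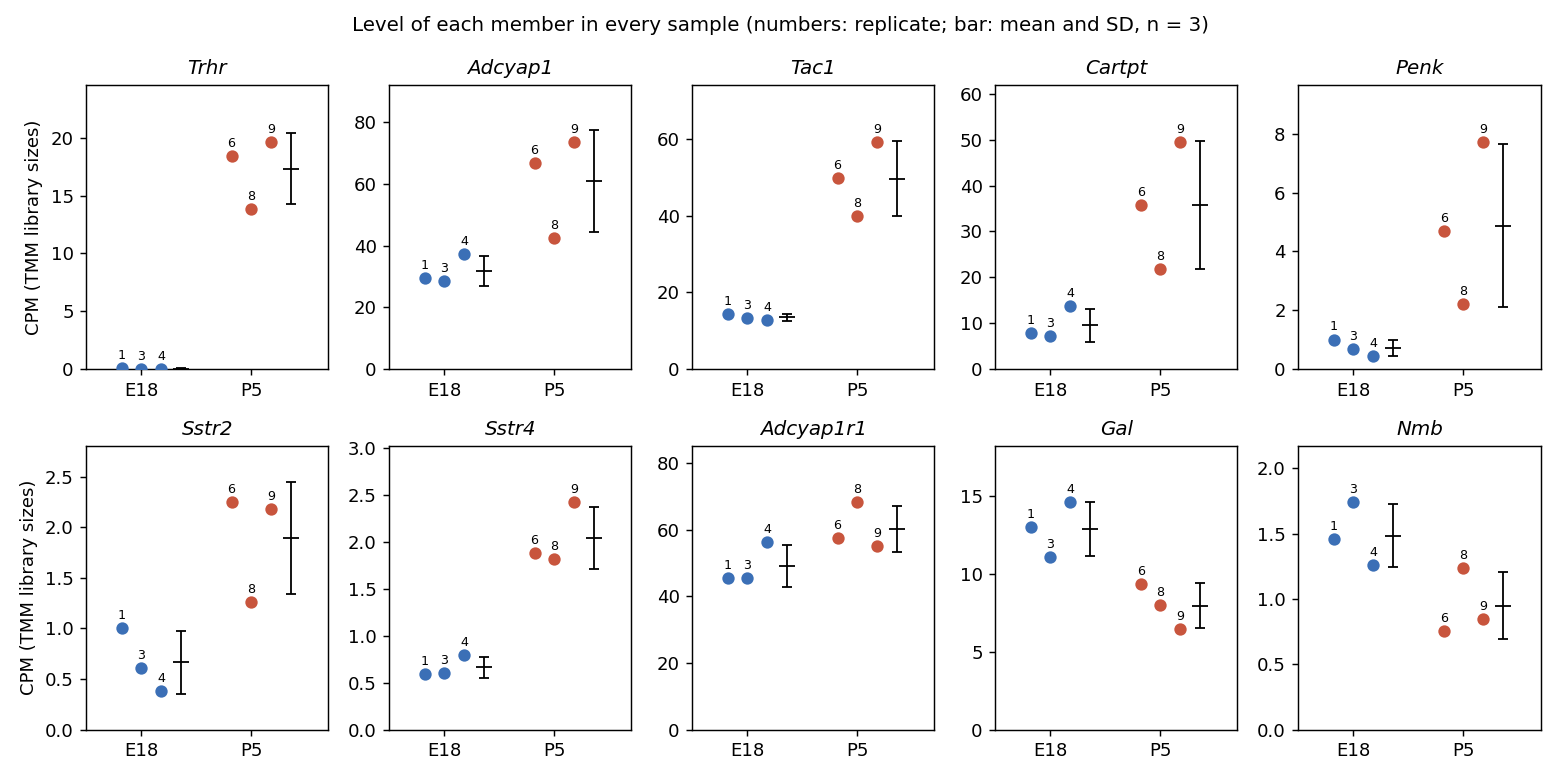
CPM of each of the 10 genes in every sample, with the replicate number above each point and the mean and SD (n = 3) beside each group. Trhr lies near 0 at E18 and between 13.9 and 19.7 CPM at P5, and P5 replicate 8 is the lowest P5 sample in the 7 genes that are higher at P5.

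The promoter sequences of some of the genes hold matches to the cyclic AMP response element, the palindrome TGACGTCA bound by CREB, or to its shorter core TGACG. They are shown because several of these receptors and peptides act through or respond to cyclic AMP. RefSeq promoters (GRCm38.p6, 250 bases before to 50 after the start site) were matched for 8 of the 10 genes, all but Trhr and Penk. Both strands were searched. The letters CACCC and the E-box CANNTG (N for any base) were searched too, and were found in 57.5% and 72.3% of all promoters. CACCC was found in Sstr4, Adcyap1r1, Sstr2, Cartpt and Gal, and the E-box in Sstr4, Tac1 and Cartpt. The full palindrome, which contains the core on each strand, was found in 1.79% of all 32851 promoters and in those of Sstr2 and Cartpt, and the core in 20.8% of all promoters and in those of Tac1, Sstr2, Cartpt, Adcyap1 and Gal. The 250 bases upstream of the start sites of Sstr2 (chr11:113619077-113619326, plus strand) and of the first listed start of Adcyap1 (chr17:93198767-93199016, plus strand), followed by 30-base windows from Cartpt (chr13:99900777-99900806, minus strand) and Tac1 (chr6:7554851-7554880, plus strand), read 5′ to 3′ with the matched letters in capitals.
Sstr2: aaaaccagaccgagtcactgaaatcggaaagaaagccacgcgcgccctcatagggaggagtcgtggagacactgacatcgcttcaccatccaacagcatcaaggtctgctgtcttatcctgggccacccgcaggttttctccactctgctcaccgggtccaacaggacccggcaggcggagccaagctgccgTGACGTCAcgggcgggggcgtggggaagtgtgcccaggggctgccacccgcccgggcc
Adcyap1: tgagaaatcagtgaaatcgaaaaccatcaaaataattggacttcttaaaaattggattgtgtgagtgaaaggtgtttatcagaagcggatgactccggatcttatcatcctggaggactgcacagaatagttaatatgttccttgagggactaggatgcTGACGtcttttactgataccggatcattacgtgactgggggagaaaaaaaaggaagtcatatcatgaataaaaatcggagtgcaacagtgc
Cartpt: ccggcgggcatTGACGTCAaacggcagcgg
Tac1: ttccctaaaattgCGTCAtttcgaacacaa
Positions count from the RefSeq start site. The palindrome began 58 bases before it in Sstr2 and 112 bases before it in Cartpt, where the GENCODE gene starts further upstream, so that all 30 bases of the Cartpt window are exonic in GENCODE. The core began 91 bases before the first listed start of Adcyap1. In Tac1 it lay on the opposite strand, as the capitals show, with matches beginning 197 and 43 bases before the RefSeq start. The GENCODE gene starts between these, so 2 bases of the window printed and all 30 bases of the window around the nearer match are exonic in GENCODE. The window printed for Gal (chr19:3414509-3414538, minus strand) is shown because Gal was one of the 2 genes lower at P5, and its single core match began at base 20 after the start.
Gal: ggcgctgagccggTGACGcggcagctccca
No core was found in these windows of Sstr4, Adcyap1r1 and Nmb. A match is a description of the letters, and binding was not measured.

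Trhr encodes the receptor for thyrotropin-releasing hormone, which couples through Gq to calcium release. The gene lies at chr15:44196135-44235912 on the plus strand of mm10 in the GENCODE annotation. It was read 5, 2 and 1 times in E18 replicates 1, 3 and 4 and 1637, 1365 and 1850 times in P5 replicates 6, 8 and 9, which gave 0.0603, 0.0178 and 0.0110 CPM at E18 and 18.5, 13.9 and 19.7 CPM at P5. The ages were far apart, with an all but empty E18 group and a P5 group whose samples lay close together. The fitted difference was 9.20 on the log2 scale, P5 minus E18 (SE 0.37, n = 3 per age). With 8 reads at E18 in all against 4852 at P5, the P5 over E18 ratio of summed reads, scaled by library size, was 616 with a 95% interval of 312 to 1428 that covers counting error only. Without E18 replicate 1, which held 5 of the 8 reads and had the highest dividing-cell level, the log2 difference was 10.07. The genes whose levels followed Trhr most closely over the 6 samples, each centred on its mean, were Gda (guanine deaminase), A630033H20Rik and Sla (an adaptor protein), at root mean square differences of 1.303, 2.003 and 2.199 in log2 CPM. Gda was at 0.0803 to 0.145 CPM at E18 and 6.68 to 19.8 CPM at P5.

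Of the other genes of this system, Trh was called lower at P5 and Trhde higher. Trh, the precursor of the hormone, was at 0.301, 0.232 and 0.431 CPM at E18 and at 0.0113, 0.142 and 0.0106 CPM at P5, and it fell by 2.49 on the log2 scale (SE 0.76, edgeR adjusted p = 0.0279). That call did not hold when any 1 of the samples other than P5 replicate 8 was left out (adjusted p 0.0511 to 0.0885). Trhde, the membrane enzyme that degrades the hormone outside cells, was at 22.5, 23.5 and 15.3 CPM at E18 and at 66.6, 47.5 and 62.8 CPM at P5. It rose by 1.53 (SE 0.19, edgeR adjusted p = 0.000642), and its call held in every alternative tried. Trhr2, a second receptor for the hormone, had no read at E18 and 0.0106 to 0.0902 CPM at P5, too few to be tested.

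Markers of direction-selective RGCs can be set beside Trhr and Cartpt, which mark cells of that class. Col25a1 was at 13.4 to 14.97 CPM at E18 and at 35.0 to 45.9 CPM at P5 and rose by 1.48 (SE 0.13, edgeR adjusted p = 0.000209). Mmp17 (18.36, 31.5 and 4.21 CPM at E18, 23.7, 18.2 and 22.6 CPM at P5) and Fstl4 (12.9 to 16.7 CPM at E18, 10.9 to 14.5 CPM at P5) overlapped between the ages and were not called (adjusted p = 0.727 and 0.311). Over all 10 RGC subtype markers the summed level was 171 to 214 CPM at E18 and 310 to 390 CPM at P5, with 7 called higher and 0 lower by edgeR, and 0 were lower at an unadjusted p under 0.05 or by DESeq2. The part of RGC subtypes in the members' differences was not tested.

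Cartpt, the CART precursor, lies at chr13:99898489-99901091 on the minus strand. It was at 7.76, 7.11 and 13.6 CPM in E18 replicates 1, 3 and 4 and at 35.8, 21.7 and 49.6 CPM in P5 replicates 6, 8 and 9. The highest E18 sample was replicate 4, and it lay below the lowest P5 sample. The difference was 1.91 on the log2 scale (SE 0.33), a 3.76-fold higher level at P5, with a range of 1.60 to 2.26 over the 11 alternatives. The most similar genes over the 6 samples were Hsf4, 6720468P15Rik and Tex40, at root mean square differences of 0.144, 0.161 and 0.174.

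Tac1, the precursor of substance P and neurokinin A, lies at chr6:7554879-7565834 on the plus strand. It was at 14.4, 13.3 and 12.7 CPM at E18 and at 49.9, 39.9 and 59.3 CPM at P5. The E18 samples lay within a narrow band, and each P5 sample was above it. The difference was 1.89 on the log2 scale (SE 0.15), a 3.70-fold higher level at P5, with a range of 1.74 to 2.04 over the alternatives. Tnfrsf11a, a receptor of the TNF family, Myo5b, an unconventional myosin, and Nell1 had the most similar patterns, with root mean square differences of 0.053, 0.080 and 0.090.

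Both tachykinin receptors that were tested by name were called higher at P5. Tacr1, the substance P receptor, was at 0.543, 0.589 and 0.939 CPM at E18 and at 1.82, 2.02 and 2.39 CPM at P5, and it rose by 1.59 on the log2 scale (SE 0.28, edgeR adjusted p = 0.00279). Tacr3, the neurokinin B receptor, was at 1.68 to 2.28 CPM at E18 and 2.30 to 4.16 CPM at P5, a difference of 0.76 (SE 0.26, adjusted p = 0.0442). The lowest P5 sample was barely above the highest E18 sample, and the call was lost without E18 replicate 3 or 4 or P5 replicate 6 or 9 (adjusted p 0.0876 to 0.151) and with upper-quartile normalization (0.0543).

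Adcyap1, the PACAP precursor, lies at chr17:93199017-93206537 on the plus strand. It was at 29.5, 28.6 and 37.2 CPM in E18 replicates 1, 3 and 4 and at 66.7, 42.4 and 73.6 CPM in P5 replicates 6, 8 and 9. The groups did not overlap, but P5 replicate 8 lay much nearer to the E18 samples than the other two did. The difference was 0.94 on the log2 scale (SE 0.20), a 1.92-fold higher level at P5, with a range of 0.78 to 1.17 over the alternatives. Lingo4, Rgs19 (a regulator of G protein signalling) and Rsad1 followed it most closely, at root mean square differences of 0.047, 0.050 and 0.051. Markers of the melanopsin RGCs, which make PACAP, were also higher at P5. Opn4 (melanopsin) was at 8.87, 4.77 and 5.84 CPM at E18 and at 22.5, 16.2 and 29.2 CPM at P5, a rise of 1.80 (SE 0.27, edgeR adjusted p = 0.00144). Eomes and Tbx20, transcription factors of these cells, rose by 2.05 and 2.22 (SE 0.26 and 0.45, edgeR adjusted p = 0.000782 and 0.00496). Eomes was at 19.5, 11.2 and 8.85 CPM at E18 and at 50.9, 51.0 and 62.2 CPM at P5. Tbx20 was at 9.90, 3.87 and 4.74 CPM at E18 and at 24.7, 15.6 and 45.9 CPM at P5. Among the E18 samples, Opn4, Eomes and Tbx20 were highest in replicate 1, and Adcyap1 in replicate 4. What share of the difference in Adcyap1 came with these cells was not tested.

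Adcyap1r1 encodes PAC1, the receptor that binds PACAP with high selectivity and raises cyclic AMP. It lies at chr6:55451978-55501451 on the plus strand. It was at 45.6, 45.4 and 56.3 CPM at E18 and at 57.5, 68.2 and 55.0 CPM at P5. The ages overlapped, since E18 replicate 4 was above P5 replicate 9, and replicate 8 was here the highest P5 sample and not the lowest. The difference was 0.29 on the log2 scale (SE 0.12) and 0.22 to 0.40 over the alternatives. Appl2, Rnf19b and Fam124a had the most similar patterns, at root mean square differences of 0.056, 0.056 and 0.058.

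PACAP also binds the VPAC receptors it shares with VIP. Vipr2 (VPAC2) was at 72.0, 68.9 and 94.96 CPM at E18 and 78.3, 79.3 and 74.9 CPM at P5, and the difference was -0.02 (SE 0.13, edgeR adjusted p = 0.910). Vipr1 (VPAC1) was at 0.161 to 0.265 CPM at E18 and 0.170 to 0.315 CPM at P5, with overlapping ages (adjusted p = 0.570). Vip itself was at 0.0221 to 0.0603 CPM at E18 and 0.0106 to 0.237 CPM at P5 and was too low to be tested.

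Penk, the enkephalin precursor, lies at chr4:4133531-4138819 on the minus strand. It was at 1.00, 0.678 and 0.442 CPM in E18 replicates 1, 3 and 4 and at 4.69, 2.21 and 7.74 CPM in P5 replicates 6, 8 and 9. The P5 samples were all higher but spread widely, with replicate 9 more than 3 times as high as replicate 8. The difference was 2.79 on the log2 scale (SE 0.48), a 6.91-fold higher level at P5, with a range of 2.29 to 3.15 over the alternatives. In E18, Penk followed the order of the dividing-cell and progenitor sums, highest in replicate 1 and lowest in replicate 4. Trhr, Tac1 and Sstr2 had the same E18 order. The part of these cells in the values of the genes with this order was not tested. Penk shares 233 exon bases with A830012C17Rik on the opposite strand, which had no row in the table, and no source used here says whether counting used strand. Its nearest patterns were those of Nr3c2 (the mineralocorticoid receptor), Gng13 (a G protein gamma subunit) and Mical2, at root mean square differences of 0.216, 0.252 and 0.257.

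All 3 classical opioid receptors rose. Oprm1 (mu), which binds enkephalins, was at 0.506, 0.526 and 0.420 CPM at E18 and at 1.76, 1.26 and 1.95 CPM at P5, and rose by 1.77 (SE 0.27, edgeR adjusted p = 0.00146). Oprd1 (delta), the main enkephalin receptor, was at 0.121, 0.0803 and 0.0663 CPM at E18 and at 0.508, 0.528 and 0.553 CPM at P5, and rose by 2.57 (SE 0.35, edgeR adjusted p = 0.000967). Oprk1 (kappa), the dynorphin receptor, was at 0.134 to 0.326 CPM at E18 and 0.649 to 0.935 CPM at P5, and rose by 2.05 (SE 0.40, edgeR adjusted p = 0.00440). These calls held in every alternative that tested them. Levels of Oprd1 and Oprk1 stayed under 1 CPM in every sample.

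Sstr2 and Sstr4, receptors for somatostatin that couple to Gi and lower cyclic AMP, were both higher at P5 at low levels. Sstr2, at chr11:113619342-113626028 on the plus strand, was at 1.00, 0.607 and 0.387 CPM in E18 replicates 1, 3 and 4 and at 2.25, 1.26 and 2.18 CPM in P5 replicates 6, 8 and 9. The lowest P5 sample, replicate 8, was close to E18 replicate 1. The difference was 1.51 on the log2 scale (SE 0.38), with a range of 1.24 to 1.92 over the alternatives. Sstr4, a gene of 1 exon at chr2:148395344-148396767 on the plus strand, was at 0.591, 0.607 and 0.795 CPM at E18 and at 1.88, 1.82 and 2.42 CPM at P5. Its groups were well apart, and the highest E18 sample was replicate 4, which was the lowest for Sstr2. The difference was 1.62 (SE 0.25), with a range of 1.48 to 1.77. Samd4, Igtp and Entpd1 were most like Sstr2 (root mean square differences of 0.125, 0.147 and 0.175), and Kcnip1, a potassium channel partner, Arhgap44 and Trnp1 were most like Sstr4 (0.071, 0.074 and 0.086). Sstr2 lies across the opposite-strand gene Slc39a11 but shares 0 exon bases with it.

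The other somatostatin genes were not called. Sstr1 was at 3.07, 2.14 and 3.23 CPM at E18 and 5.04, 3.05 and 4.02 CPM at P5, with a difference of 0.52 (SE 0.25, edgeR adjusted p = 0.123) that was called without P5 replicate 8 (0.71, adjusted p = 0.0388). Sstr3 (0.0446 to 0.221 CPM at E18, 0.173 to 0.489 CPM at P5) and Sstr5 (0.0981 to 0.157 CPM at E18, 0.149 to 0.173 CPM at P5) overlapped between the ages (edgeR adjusted p = 0.138 and 0.535). The peptides Sst and Cort were at 0.0508 to 0.606 CPM and 0.117 to 0.376 CPM over the 6 samples (edgeR adjusted p = 0.114 and 0.142), and each was called without P5 replicate 8 (log2 difference 2.16, adjusted p = 0.00818, and -1.15, adjusted p = 0.0430).

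Gal, the galanin precursor, lies at chr19:3409915-3414544 on the minus strand. It was at 13.01, 11.1 and 14.6 CPM in E18 replicates 1, 3 and 4 and at 9.39, 8.04 and 6.50 CPM in P5 replicates 6, 8 and 9. Each E18 sample was above each P5 sample. The difference was -0.69 on the log2 scale (SE 0.17), a 1.62-fold higher level at E18, with a range of -0.81 to -0.57 over the alternatives. Its highest E18 value came from replicate 4, the E18 sample with the lowest dividing-cell and progenitor sums, and the part of those cells was not tested. Gm6225, AA388235 and the zinc transporter Slc39a2 had the nearest patterns, at root mean square differences of 0.050, 0.067 and 0.069. Among its receptors, Galr1 was at 0.133, 0.187 and 0.166 CPM at E18 and at 0.0226, 0.0610 and 0.0425 CPM at P5, and fell by 1.91 on the log2 scale (SE 0.49, edgeR adjusted p = 0.0144). This call was lost with DESeq2 (adjusted p = 0.0539) and without E18 replicate 3 (0.0675). Galr2, at 1.35 to 1.46 CPM at E18 and 1.39 to 2.15 CPM at P5, was not called (adjusted p = 0.485), and Galr3 (0.0110 to 0.149 CPM) was not tested.

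Nmb, the neuromedin B precursor, lies at chr7:80902227-80905076 on the minus strand. It was at 1.46, 1.74 and 1.26 CPM at E18 and at 0.756, 1.24 and 0.850 CPM at P5. The groups were barely separate, since the 114 reads of E18 replicate 4 and the 122 reads of P5 replicate 8, in a larger library, came to almost the same CPM. The difference was -0.65 (SE 0.27), and -0.87 to -0.49 over the alternatives. Nmb shares 163 exon bases with the signal peptidase gene Sec11a on the same strand, which had 4027 to 5994 reads per sample, so reads of the shared bases could not be assigned with certainty. Auts2, Setd1b and Zbtb20 had the nearest patterns, at root mean square differences of 0.037, 0.043 and 0.065. Its receptor Nmbr (0.366 to 0.497 CPM at E18, 0.254 to 0.384 CPM at P5) and the related peptide Grp (0.122 to 0.313 CPM at E18, 0.0638 to 0.135 CPM at P5) were not called (edgeR adjusted p = 0.482 and 0.212).

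**Figure D2:**
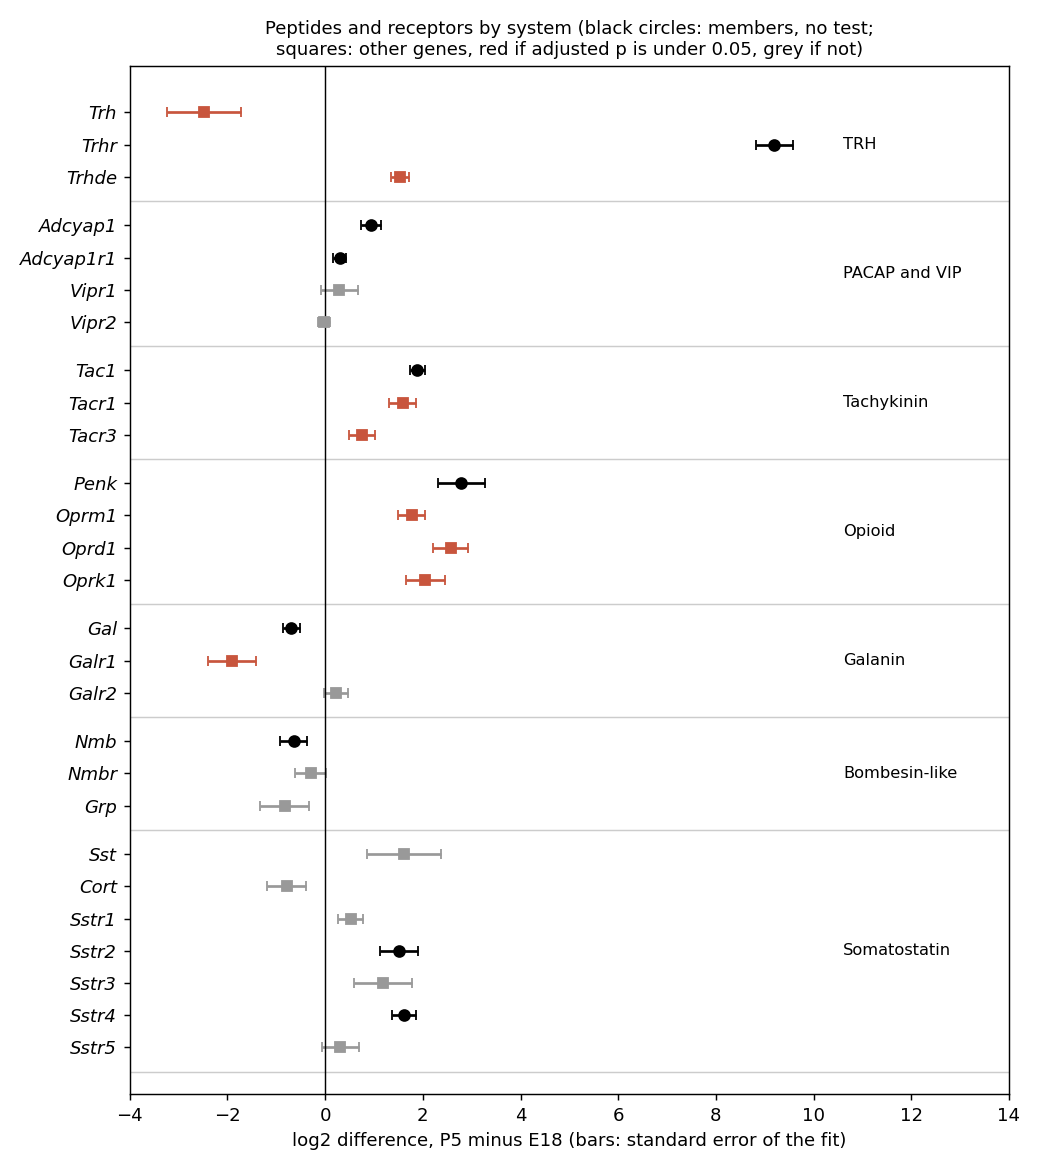
Log2 difference, P5 minus E18, with its standard error for the peptides, receptors and enzyme of each system, with members as black circles (no test, Cartpt has no named partner and is left out) and other genes as squares (red where edgeR's adjusted p was under 0.05). The 3 opioid receptors and Penk, and both tachykinin receptors and Tac1, lie to the right of 0, Trh and Galr1 lie to the left, and Vipr2 lies at -0.02.

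Levels between genes were compared as CPM per kb of transcript. At E18 the order of mean levels was Gal (16.4 ± 2.2, SD, n = 3), Adcyap1r1 (13.3 ± 1.7), Cartpt (11.5 ± 4.3), Tac1 (10.9 ± 0.70) and Adcyap1 (9.35 ± 1.4), and each of these overlapped with its neighbour. Nmb (2.11 ± 0.34) stood apart below them. Penk (0.488 ± 0.19), Sstr4 (0.466 ± 0.080) and Sstr2 (0.432 ± 0.20) overlapped with each other, and Trhr (0.00824 ± 0.0074) was last and apart. At P5 Cartpt (43.1 ± 17) and Tac1 (40.4 ± 7.9) led without being separable, and were followed by Adcyap1 (17.96 ± 4.8) with Adcyap1r1 (16.3 ± 1.9), and then by Gal (10.1 ± 1.8), which was apart from the genes on either side. Trhr (4.80 ± 0.85), Penk (3.37 ± 1.9), Sstr4 (1.43 ± 0.23), Nmb (1.35 ± 0.36) and Sstr2 (1.23 ± 0.36) formed the lower end, with each overlapping its neighbour. Gal thus had the first mean at E18 and the fifth at P5, while Trhr went from the last position to the sixth.

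**Figure D3:**
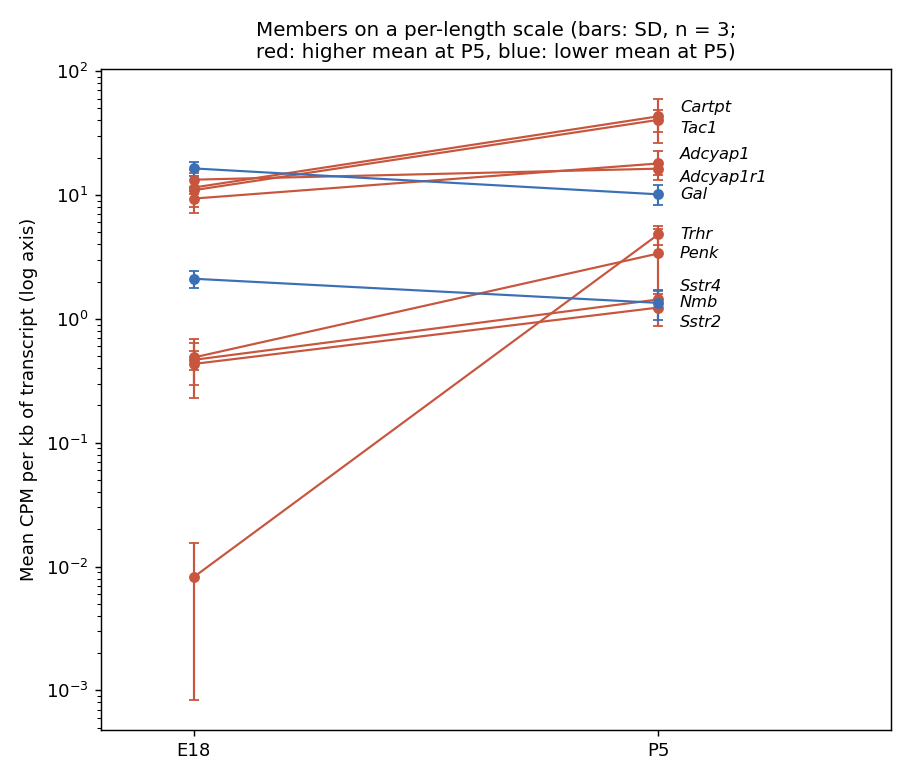
Mean CPM per kb of transcript on a log axis at E18 and P5, with SD over 3 samples, in red where the P5 mean was higher and in blue where it was lower. Trhr crosses from 0.00824 to 4.80, and Cartpt and Tac1 end at 43.1 and 40.4.

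P5 replicate 8 was the lowest P5 sample in each of the 7 genes higher at P5, and P5 replicate 9 was the highest in 6 of them. The same order was common in the whole table, where among the 3709 genes called higher at P5 replicate 8 was the lowest in 65.5% and replicate 9 the highest in 62.7%. The E18 samples kept no common order among the members: Trhr, Tac1, Penk and Sstr2 were highest in replicate 1, Adcyap1, Adcyap1r1, Cartpt, Gal and Sstr4 in replicate 4, and Nmb in replicate 3.

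Lists of other genes of peptide signalling put the members in their setting. Among other peptide precursors, 34 of the 64 in the table were expressed enough to be tested, and 8 were called higher and 7 lower at P5, or 23.5% and 20.6% against 22.5% and 20.8% of all genes. Their median log2 difference was -0.13, beside -0.0047 over all genes. With a filter of at least 1 CPM in 3 samples, 10 precursors were tested, of which 0 were called higher and 6 lower by edgeR, with 0 higher at an unadjusted p under 0.05 and 0 of the 10 higher by DESeq2, and the median was -0.78. The 8 precursors called higher in the whole list did not pass that filter. Calca, the CGRP precursor, was at 0.571 to 0.751 CPM at E18 and 0.762 to 2.10 CPM at P5 (log2 difference 1.34, edgeR adjusted p = 0.0225). Pnoc, the nociceptin precursor, was at 8.59, 10.8 and 8.50 CPM at E18 and at 3.81, 3.73 and 3.86 CPM at P5, and fell by 1.29 (SE 0.16, edgeR adjusted p = 0.000620). Pdyn, the dynorphin precursor, fell by 1.72 (edgeR adjusted p = 0.0252) although its groups overlapped. It was at 3.63, 4.41 and 0.884 CPM at E18 and 0.699 to 1.03 CPM at P5, and its high E18 samples were the ones with high Tfap2b. Whether amacrine cells account for Pdyn was not tested. Nppc, which encodes C-type natriuretic peptide, fell by 1.03 (edgeR adjusted p = 0.0472).

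Only Pnoc of these 4 precursors kept its call in all 6 fits that omitted 1 sample. Calca lost it without E18 replicate 1 or 3 or P5 replicate 6 or 9 (adjusted p 0.0618 to 0.0817), Pdyn without the same samples (0.0620 to 0.102), and Nppc without any single sample other than P5 replicate 6 (0.0626 to 0.111). The count of 15 precursors called was 8 without E18 replicate 1 and 6 without E18 replicate 3, and it was 7 without P5 replicate 6 and 8 without P5 replicate 9. Crh, the precursor of corticotropin-releasing hormone, was chosen for mention after its values were seen: it had the highest log2 difference of the list, 4.81 (edgeR adjusted p = 0.00156), from 0.00892 to 0.0482 CPM at E18 to 1.15, 0.295 and 1.37 CPM at P5.

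Peptide receptors were called more often in one direction. Of 81 in the table, 59 were tested, and 24 were called higher at P5 and 6 lower. These were 40.7% and 10.2%, against 22.5% and 20.8% of all genes. The median log2 difference of the receptors was 0.67, beside -0.0047 over all genes. A gene could pass the expression filter through 1 age alone, as Trhr did. Npsr1, the neuropeptide S receptor, was at 0.155 to 0.205 CPM at E18 and at 2.64, 1.46 and 3.86 CPM at P5, and rose by 3.91 (SE 0.40, edgeR adjusted p = 0.000346). Calcrl, the receptor that binds CGRP and adrenomedullin with its RAMP partners, rose by 2.71 (SE 0.31, adjusted p = 0.000457), and Hcrtr1, the orexin receptor, by 2.38 (SE 0.29, adjusted p = 0.000625). In the other direction, Sctr, the secretin receptor, was at 3.06, 2.94 and 3.63 CPM at E18 and at 0.338, 0.345 and 0.0425 CPM at P5, and fell by 3.72 (SE 0.55, edgeR adjusted p = 0.00137). Prokr2 (from 8.76 to 9.98 CPM at E18 to 2.37 to 6.17 CPM at P5) and Mc1r (from 2.17 to 2.99 CPM to 1.21 to 1.71 CPM) decreased by 0.96 and by 0.83 on the log2 scale (edgeR adjusted p = 0.0350 and 0.0193). Each lost its call without E18 replicate 1 or 3, without P5 replicate 6 and without one further sample, E18 replicate 4 for Prokr2 and P5 replicate 9 for Mc1r (adjusted p 0.0506 to 0.0796).

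Genes that make and store peptides were higher at P5 where they were called. Of 17 genes of peptide processing and dense-core vesicles, 12 were called higher at P5 and 0 lower by edgeR (70.6% against 22.5% of all genes), with a median log2 difference of 0.52. None were lower at an unadjusted p under 0.05 or by DESeq2 (0 in both). The prohormone convertases that cut precursors were among them. Pcsk2 was at 38.5, 40.9 and 41.1 CPM at E18 and at 96.0, 78.2 and 122 CPM at P5, and rose by 1.30 (SE 0.15, edgeR adjusted p = 0.000528). Pcsk1 was at 9.13, 10.7 and 10.9 CPM at E18 and at 24.1, 14.6 and 23.9 CPM at P5, and rose by 1.03 (SE 0.20, adjusted p = 0.00390). Scg2 (secretogranin II), a vesicle cargo protein, was at 124, 156 and 58.0 CPM at E18 and at 276, 185 and 433 CPM at P5. Its difference of 1.40 (SE 0.38, adjusted p = 0.0176) was not called without P5 replicate 6 (0.0518) or 9 (0.0622). Scg3 was lower in every P5 sample than in every E18 sample but was not called (-0.12, edgeR adjusted p = 0.285).

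Of 14 peptide-degrading enzymes, 13 were tested, and 6 were called higher at P5 and 0 lower by edgeR (46.2% against 22.5%), with a median log2 difference of 0.30, and 0 were lower at an unadjusted p under 0.05 or by DESeq2. Without P5 replicate 9, 5 were called higher and 1 lower, Ece2, named after its values were seen (edgeR adjusted p = 0.0237). Beside Trhde, these included Mme (neprilysin), which cleaves enkephalins and substance P among others and rose by 1.11 (SE 0.18, edgeR adjusted p = 0.00188) from 1.92 to 2.23 CPM at E18 to 4.18 to 4.85 CPM at P5. Ide, the insulin-degrading enzyme, rose by 1.05 (SE 0.11, adjusted p = 0.000367), from 43.6 to 45.7 CPM to 81.7 to 107 CPM.

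Of 13 G protein alpha subunits, 7 were called higher at P5 and 2 lower (53.8% and 15.4%, against 22.5% and 20.8% of all genes), with a median log2 difference of 0.39. Gna11, of the Gq class that TRH and tachykinin receptors use, rose by 0.85 (SE 0.12, edgeR adjusted p = 0.00125). In the same class, Gna14 and Gna15 were called higher at mean P5 levels of 1.18 and 0.194 CPM. Gnaq, at a mean of 179 CPM at P5, was not called (-0.06, edgeR adjusted p = 0.646). Gnai1 and Gnao1, of the Gi/o class that opioid, somatostatin and galanin receptors use, rose by 0.74 (SE 0.08, adjusted p = 0.000382) and 0.64 (SE 0.11, adjusted p = 0.00240). Gnaz of this class was also called higher (0.39, edgeR adjusted p = 0.0325). Gnai2 and Gnai3 were not called (-0.21 and -0.30, edgeR adjusted p = 0.0598 and 0.124). Gna13 fell by 0.73 (SE 0.12, adjusted p = 0.00180), and Gna12 fell by 0.47 (SE 0.13, adjusted p = 0.0188), a call lost without E18 replicate 1 or 4 or P5 replicate 6 or 9 (0.0501 to 0.0709). Of 7 receptor kinases and arrestins, which end receptor signalling, 4 were called higher at P5 and 0 lower by edgeR (57.1% higher, against 22.5% of all genes), with a median of 0.38. Grk5 was the 1 gene lower at an unadjusted p under 0.05 and the 1 gene lower by DESeq2, and 2 of the 7 were called without E18 replicate 3. Grk4 rose by 1.14 (SE 0.17, edgeR adjusted p = 0.00148) and Adrbk2 by 1.00 (SE 0.11, adjusted p = 0.000360). Adrbk1 was at 71.0 to 77.4 CPM at E18 and 82.2 to 107 CPM at P5, a difference of 0.40 (adjusted p = 0.0215) that was not called without E18 replicate 1 or 3 or P5 replicate 9 (0.0648 to 0.0791).

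**Figure D4:**
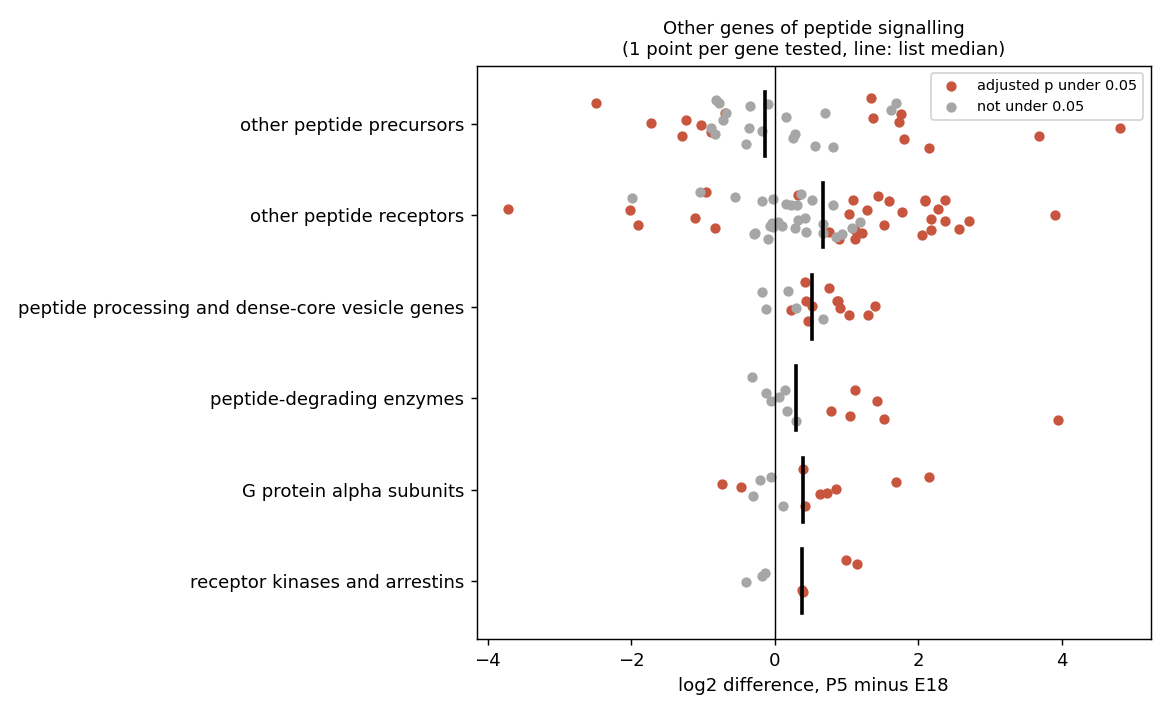
Log2 difference, P5 minus E18, of each tested gene in the 6 lists of other peptide signalling genes, in red where edgeR's adjusted p was under 0.05, with the median of each list as a black line. The precursor median lies at -0.13 and the receptor median at 0.67, and the processing genes and degrading enzymes hold no red point to the left of 0.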

How the data were processed

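RNA of immunopanned RGCs was sequenced by the study from 3 E18 and 3 P5 samples. The authors aligned 100-base paired-end reads to mm10 (STAR 2.4.0), assigned them to RefSeq genes (HT-seq 0.6.1) and deposited the raw counts per gene. Strand and multi-mapping settings are not given in the sources used here, so counts of overlapping genes are uncertain. The normalized counts deposited by the authors are a signal scaled for library size and were not used. The authors' comparison columns (log2 fold changes, ratios to P5, p-values, false discovery rates and a rank) were not used either.

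Samples were grouped by the age in their titles. Replicates of one age differed by more than sampling noise (chi-square 30.5 to 141 per degree of freedom). For the 16449 genes passing filterByExpr, edgeR 4.0.16 (R 4.3.3) was used for TMM normalization and the quasi-likelihood F-test. P-values were adjusted by Benjamini-Hochberg over all these genes, and a gene was called at an adjusted p under 0.05. The scripts were tested on simulated data. A standard error is the size of the log2 difference divided by the root of the test's F value. Lengths and positions came from GENCODE M21 (GRCm38, the same assembly as mm10), matched for all 10 members. Likeness is the root mean square difference of log2(CPM + 0.01), centred per gene over the 6 samples, among tested genes that averaged 1 CPM or more.

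The members, the lists and the rules were chosen with earlier results of these data known. Named genes are the members, their known ligands and receptors, and up to 3 genes with the largest positive and 3 with the largest negative log2 difference per list, among called genes that averaged 1 CPM or more. The alternatives were DESeq2 1.42.0, RLE and upper-quartile normalization, a filter of at least 1 CPM in 3 samples, no filter, and omission of each sample in turn. Marker sums of other cell types were at 3.20 to 9.58 CPM at E18 and 3.29 to 4.81 CPM at P5 for photoreceptors, 47.2 to 55.2 and 69.3 to 97.0 CPM for bipolar cells, 325 to 359 and 246 to 287 CPM for Müller glia with astrocytes, 2.05 to 2.85 and 1.56 to 2.31 CPM for microglia, and 16.4 to 72.5 and 14.5 to 17.7 CPM for endothelial cells with pericytes.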

Additional observations from a re-analysis of the deposited data

How the results depend on the processing

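The log2 differences of the 10 members kept their sign in each of the 11 alternatives, and the value for Trhr alone moved by more than the spread between replicates, to 10.07 without E18 replicate 1. Leaving out each sample in turn gave 4575 to 8796 genes called in all, 6 to 17 other precursors, 23 to 33 other receptors, 8 to 12 processing genes, 5 to 7 degrading enzymes, 7 to 10 G protein alpha subunits and 2 to 4 receptor kinases and arrestins. With a filter of at least 1 CPM in 3 samples, 10 precursors were tested and 6 were called, each of them lower at P5, and 31 receptors were tested and 19 called, since fewer genes entered the test. The precursor median changed sign with DESeq2 (0.14), with no filter (0.12) and without E18 replicate 3 (0.12). These medians cover unlike sets of genes. In the main fit 34 precursors entered, against 64 with DESeq2, 63 with no filter and 35 without E18 replicate 3. The cause of the sign changes was not tested. Of 41 other named genes tested, 31 were called, and 20 of these were called in every alternative that tested them, while 11 lost the call in at least 1. The difference of Vipr2, which was not called, was 0.14 without E18 replicate 4 and 0.0056 without P5 replicate 9, and over the 6 omissions it ranged from -0.11 to 0.14. No paired analysis was possible because no replicate number is shared between the ages. Depth limits the low genes most: the E18 level of Trhr rests on 8 reads in 3 samples.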
